A study of Homo sapiens with 4 samples.

Results

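The 10 genes described here are the translation elongation factors EEF1A1, EEF1A2, EEF1B2, EEF1D, EEF1G and EEF2, the gene EEF1E1 that shares their name, the kinase EEF2K, and the paralogs EIF5A and EIF5A2, out of 60623 genes in the deposited table. They were chosen by family membership, and the set was built around EEF1A2, which was selected on its rise in these same libraries, so the values of EEF1A2 are given as a description with no test. RNA was sequenced from the established human bladder carcinoma line T24, with 2 libraries for the control group and 2 for the group overexpressing CBX7, a chromobox subunit of Polycomb repressive complex 1. The full-length CBX7 came from an expression vector with a FLAG tag, in a single line and with a single construct, and the sources used here do not say whether the control cells carried an empty vector. All cells were grown in RPMI with serum, no other allele or agent is named for either group, and nothing says that the libraries of a group came from separate cultures, so the p-values measure only the spread between these libraries, which may be technical.

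During elongation, eEF1A bound to GTP carries each aminoacyl-tRNA to the ribosome, the eEF1B exchange complex reloads eEF1A with GTP, and eEF2 moves the ribosome on to the next codon. EEF2K phosphorylates eEF2 and slows elongation, and eIF5A, the protein that carries the unusual amino acid hypusine, helps ribosomes through stretches that join slowly. EEF1A1 is expressed in nearly all cells, whereas its paralog EEF1A2 is usually limited to skeletal muscle, heart and neurons, where it takes over from EEF1A1 after birth.

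Start sites and paralog sequences were read first, because they bear on how the members can be told apart and on what they share. Messages of the translation machinery often begin with a C followed by a run of pyrimidines, the 5′ terminal oligopyrimidine motif. In the RefSeq start sites (GRCh38.p14), a C at the first base followed by at least 4 bases that are C or T, read on the gene's strand only, was found at 4.07% of 35116 starts of all genes. Of the 14 starts of the 8 members with an entry, 3 held it, EEF1A1, EEF2 and 1 of the starts of EEF1B2, which are shown because they are the matches, with the EEF1G start, which lacked it, for contrast. The windows hold 20 bases before and 10 bases from the start, 5′ to 3′, and the capitals mark the run from the first base on, as far as the window reaches. In EEF1B2 the run is 16 bases long and goes on past the window. A match is a description of these letters, and EEF1A2 and EEF1D had no entry.
EEF1A1 (chr6:73521023-73521052, minus strand): cagtagtcgccgtgaacgttCTTTTTCgca
EEF2 (chr19:3985454-3985483, minus strand): tgagtgttgacgtcagcgttCTCTTCCgcc
EEF1B2 (chr2:206159875-206159904, plus strand): attttccggtctcttcgggtCCTTTTTCCT
EEF1G (chr11:62573882-62573911, minus strand): ccttctctcccgggcggcttactttgcggc

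The predicted eEF1A1 and eEF1A2 proteins, of 462 and 463 residues, were identical at 428 of 463 aligned positions (92.4%), but their coding sequences were identical at only 78.0% of bases (GENCODE release 29 transcripts). None of the 1343 windows of 50 bases in the EEF1A2 coding sequence occurred in an EEF1A1 transcript, and none of the 1340 EEF1A1 windows occurred in an EEF1A2 transcript. Reads at least that long from the coding sequences would therefore separate the paralogs where they match perfectly. Windows outside the coding sequences were not examined, and the read length is not given in the sources used here. EIF5A and EIF5A2 were identical at 82.5% of aligned residues and 71.2% of coding bases. No coding window of 50 bases from either gene occurred in a transcript of the other. Codons 45 to 55 around the lysine that becomes hypusine are shown next because they encode the same residues in both genes while 6 of 33 bases differ. The capitals mark codon 50, the hypusine lysine.
EIF5A: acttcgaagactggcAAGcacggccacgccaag
EIF5A2: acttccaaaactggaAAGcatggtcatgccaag

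The estimated counts summed to between 20800910 and 25135488 per library. CBX7 had 261.4 and 203.3 estimated counts in the control libraries and 42852 and 35641 in the CBX7 libraries, higher in both, as the labels have it. The epithelial keratins KRT7, KRT8 and KRT18 were abundant, at 957 TMM-normalized CPM (counts scaled to library size) or more in each library, as was the mesenchymal filament gene VIM, but the urothelial markers KRT5, UPK1A, UPK2 and UPK3A had 3 counts or fewer in every library. Between the CBX7 libraries, the log2 ratio of replicate 1 to replicate 2 followed gene length (Spearman correlation -0.70 over 11077 genes averaging 100 counts or more), against -0.49 between the control libraries, a description across genes, which are not independent. Short messages were thus higher in CBX7 replicate 1. The members are therefore also given without each of the CBX7 libraries.

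EEF1A2 (ENSG00000101210, chr20:63488012-63499322 on the minus strand, GRCh38) had 1108 and 823 estimated counts in control cells, against 11855 and 7859 under CBX7. On the TPM scale, the share of transcripts after division by length, it stood at 43.3 and 38.4 in control cells, against 382 and 351 under CBX7. Both CBX7 libraries lay far above both control libraries, and the groups did not overlap. The mean level was 9.84-fold higher in the fit to counts and 8.97-fold higher on TPM, with a log2 fold change of 3.30 (standard error 0.22, 2 libraries per group). Ranked by TPM among all genes, EEF1A2 moved from places 3155 and 3661 in the control libraries to places 336 and 359 in the CBX7 libraries. The library pairs with the same number differed by 3.40 and 3.17 on the log2 CPM scale. The rise was 3.04 on the log2 scale without CBX7 replicate 1 and 3.52 without CBX7 replicate 2, and it lay between 3.14 and 3.30 in the fits to all 4 libraries. In bulk libraries, more cells expressing EEF1A2 and more EEF1A2 RNA per cell cannot be told apart.

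EEF1A1 (ENSG00000156508, chr6:73515750-73523797, minus strand) encodes the ubiquitous form and was the most abundant member in every library. Its TPM level was 8005 and 7754 in control cells, against 7031 and 7154 under CBX7, so that both CBX7 libraries were lower on this scale. On the CPM scale its values were 11742 and 11161 in control cells, against 12135 and 9978 under CBX7, where the groups overlapped. The log2 fold change was -0.05 (95% interval -0.42 to 0.31, adjusted p = 0.956 from edgeR), and its sign turned to 0.03 when the length trend of each library was removed. A fall of EEF1A1 was therefore not shown, and the interval allows a change in either direction.

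**Figure D1:**
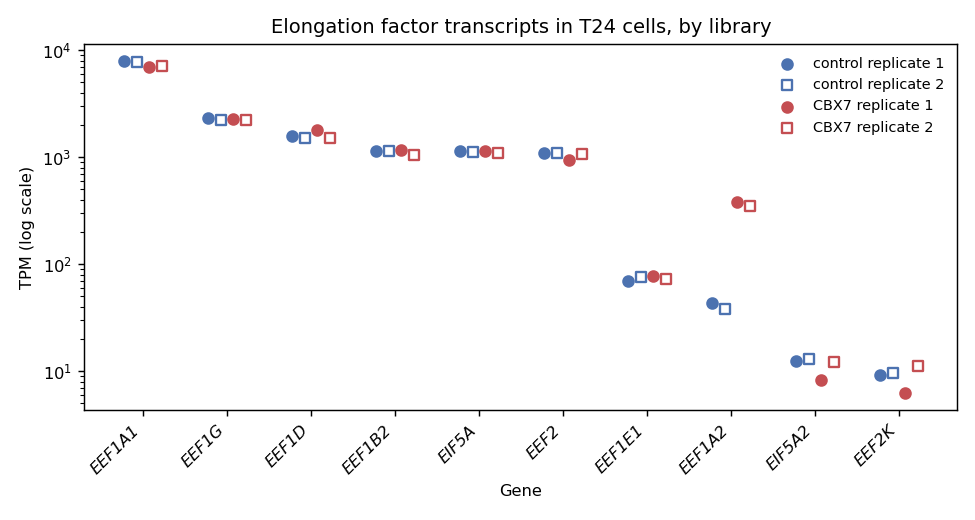
TPM (log axis) of the 10 genes in each of the 4 libraries, ordered by the mean of the control libraries; filled circles are replicate 1 and open squares replicate 2, in blue for control and red for CBX7. EEF1A2 is the gene whose CBX7 points (382 and 351 TPM) leave the control points (43.3 and 38.4 TPM), while EIF5A2 and EEF2K differ between the CBX7 libraries.

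The share of EEF1A messages that came from EEF1A2 was taken per library as EEF1A2 over the sum of EEF1A1 and EEF1A2 on TPM. It was 0.538% and 0.493% in control cells, against 5.15% and 4.68% under CBX7, or 0.516% ± 0.0317 against 4.92% ± 0.334 (SD, n = 2 libraries each). The share was thus 9.54 times as large with CBX7, yet EEF1A1 still outnumbered EEF1A2 by 18.4 and 20.4 to 1 in the CBX7 libraries, against 184.9 and 201.8 to 1 in the control libraries. Of estimated counts, not divided by length, EEF1A2 made up 0.394% (95% Wilson interval 0.371 to 0.418) and 0.350% (0.327 to 0.375) in control cells. It made up 3.89% (3.82 to 3.96) and 3.41% (3.33 to 3.48) in CBX7-overexpressing cells. These intervals cover counting error only. They overlapped between the control libraries and did not overlap between the CBX7 libraries. No comparison between the groups is drawn from them, since EEF1A2 was selected on its rise.

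The level of the share depended on the length used, while its ratio between the groups stayed between 9.26 and 9.80. The table lists 4441 bases for EEF1A1 and 1586 for EEF1A2, a ratio of 2.80, but the deposited counts and TPM imply effective lengths in a ratio of only 1.34 to 1.41. With counts divided by the listed lengths the share was 1.03% in control and 9.58% in CBX7-overexpressing cells. The summed TPM of both paralogs was 7921 ± 181 in control cells and 7460 ± 65.8 under CBX7 (SD, n = 2 libraries each). The mean of EEF1A2 differed by 325.8 TPM (CBX7 minus control) and that of EEF1A1 by -786.9 TPM, so the EEF1A pool as a whole was not larger with CBX7 on this scale. On CPM the sum was not taken. EEF1A1 alone, at 12135 and 9978 CPM with CBX7, lay on either side of its control values of 11742 and 11161.

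**Figure D2:**
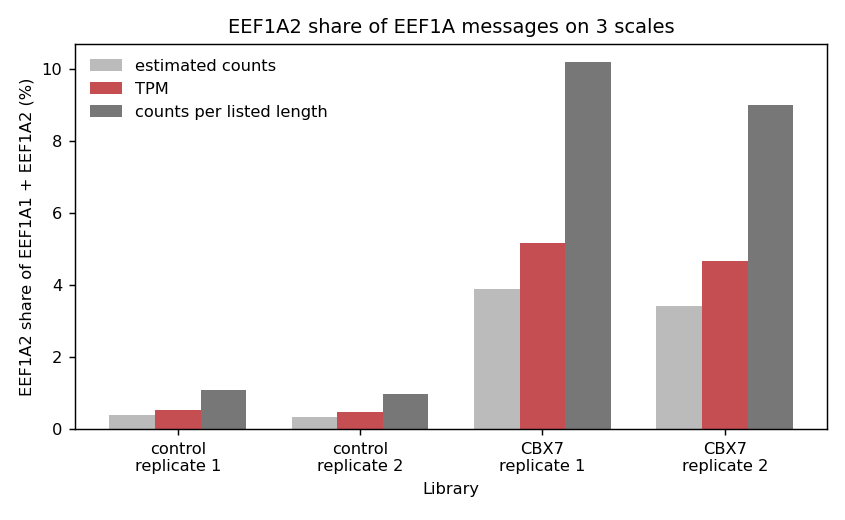
Share of EEF1A1 plus EEF1A2 that is EEF1A2, in percent, for each library on 3 scales: estimated counts (light grey), TPM (red) and counts divided by the listed gene length (dark grey). On every scale both CBX7 libraries stand above both control libraries, from 3.41% against 0.394% on counts to 8.98% against 1.10% on counts per listed length.

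Apart from EEF1A2 itself, none of the 9 other members passed an adjusted p of 0.05 (edgeR, quasi-likelihood test, adjusted over 14862 genes), and none had an unadjusted p under 0.05, which 4.74% of all genes tested had. All 10 genes passed the filter on low counts, and 3 of the 14862 genes tested (0.0202%) were called; EEF1A2, on which the set was built, was 1 of them, and nothing is read from that. DESeq2's Wald test called no other member either, and 67 genes in all. The log2 fold changes of the 9 ran from -0.26 for EIF5A2 to 0.24 for EEF1D, with a median of 0.09 against 0.00 over all genes tested. No other member had both CBX7 libraries above both control libraries on CPM, a pattern of 15.4% of all genes tested, and 2 of 9, EEF2 and EIF5A2, had both below, against 14.8% of all genes. For 1 gene, the smallest two-sided p that an exact permutation of 2 against 2 libraries allows is 0.333, so these calls rest on the spread estimated across genes.

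The subunits of the exchange complex were among the abundant messages. EEF1G, which encodes the structural gamma subunit, had 2322 and 2236 TPM in control cells, against 2274 and 2217 TPM under CBX7. EEF1B2, which encodes an exchange subunit, had 1141 and 1149 TPM in control cells, against 1160 and 1052 TPM under CBX7. EEF1D, which encodes the other exchange subunit, had 1572 and 1527 TPM in control cells, against 1791 and 1525 TPM under CBX7. For each of the 3 subunits the groups overlapped, and the high value of EEF1D came from CBX7 replicate 1 alone. Their log2 fold changes on counts were 0.10 for EEF1G (chromosome 11, 95% interval -0.31 to 0.52), 0.09 for EEF1B2 (chromosome 2, -0.37 to 0.56) and 0.24 for EEF1D (chromosome 8, -0.29 to 0.78), so changes of these sizes in either direction were not told from 0 with 2 libraries per group. EEF1B2 stood at 0.491 and 0.514 of EEF1G in control cells and at 0.510 and 0.474 with CBX7. EEF1D stood at 0.677 and 0.683 of EEF1G in control cells and at 0.788 and 0.688 with CBX7, higher in both CBX7 libraries but in replicate 2 by little. The EEF1A sum was 3.47 and 3.49 times EEF1G in control cells and 3.26 and 3.39 times with CBX7. EEF1A2 alone moved from 0.0186 and 0.0172 of EEF1G to 0.168 and 0.159.

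EEF2, the translocation factor, had 1095 and 1101 TPM in control cells, against 950 and 1081 TPM under CBX7, with a log2 fold change on counts of -0.09 (95% interval -0.40 to 0.22, adjusted p = 0.951 from edgeR). Both CBX7 libraries were lower on TPM, replicate 2 by little, and on CPM, at 2327 and 2158 against 2427 and 2352. Without CBX7 replicate 1 the log2 fold change was -0.14, and without replicate 2 it was -0.04. EEF2K, the kinase that inhibits eEF2, was scarce at 9.19 and 9.67 TPM in control cells, and its CBX7 libraries lay on either side of these values at 6.21 and 11.1 TPM. EEF1E1, known as AIMP3, is a scaffold of the multisynthetase complex and no elongation factor by function. It had 69.5 and 76.2 TPM in control cells, against 77.4 and 72.4 TPM under CBX7, and the groups overlapped. The log2 fold changes on counts were -0.10 (95% interval -0.56 to 0.36) for EEF2K on chromosome 16 and 0.12 (-0.30 to 0.54) for EEF1E1 on chromosome 6.

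EIF5A, the common form of eIF5A, had 1155 and 1116 TPM in control cells, against 1155 and 1090 TPM under CBX7, and the groups overlapped (log2 fold change on counts 0.12, 95% interval -0.33 to 0.56). EIF5A2, its restricted paralog, had 12.5 and 12.9 TPM in control cells, against 8.21 and 12.2 TPM under CBX7. Both CBX7 values were lower, but the log2 fold change of -0.26 (95% interval -0.60 to 0.08, adjusted p = 0.951 from edgeR) was not past the threshold. It was -0.19 without CBX7 replicate 1 and -0.33 without replicate 2. The share of EIF5A messages that came from EIF5A2 was 1.07% and 1.14% in control cells and 0.706% and 1.11% with CBX7, or 1.11% ± 0.0538 and 0.906% ± 0.284 (SD, n = 2 libraries each). The other paralog pair of the set thus gave a ratio between the groups of 0.819, where the EEF1A pair gave 9.54; the difference between the pairs was not tested, since EEF1A2 had been selected on its rise.

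In control cells the order by mean TPM ran from EEF1A1 through EEF1G and EEF1D to EEF1B2, EIF5A and EEF2, and then, far lower, to EEF1E1, EEF1A2, EIF5A2 and EEF2K. EEF1B2 and EIF5A overlapped and cannot be ordered, while the others did not overlap with their neighbours in this order. With CBX7, EEF1A2 passed EEF1E1 and took the place after EEF2, EEF1B2 overlapped with both EIF5A and EEF2, and EIF5A2 overlapped with EEF2K. The 10 genes together made up 1.55% and 1.51% of all TPM in control cells and 1.5% and 1.47% with CBX7.

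The replicates of the CBX7 group differed more in favor of replicate 1 for the short members than for the longest. On the CPM scale, replicate 1 exceeded replicate 2 by 0.49 for EEF1B2 (808 bases listed), 0.44 for EIF5A (811 bases) and 0.38 for EEF1E1 (1047 bases) on the log2 scale. The difference was 0.11 for EEF2 (3158 bases), -0.13 for EIF5A2 (5534 bases) and -0.45 for EEF2K (7398 bases). EEF1A2, with 1586 bases, differed by 0.48, and EEF1G, with 1446 bases, by 0.37. The order was not strict, since EEF1D (2387 bases) differed by 0.59 and EEF1A1 (4441 bases) by 0.28. On TPM the differences of the short genes were smaller, at 0.12 for EEF1A2, 0.14 for EEF1B2 and 0.08 for EIF5A, and they were -0.03 for EEF1A1, -0.57 for EIF5A2 and -0.84 for EEF2K. In the control group the corresponding CPM differences lay between -0.14 for EIF5A2 and 0.24 for EEF1A2.

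The direction of most of the other members therefore hung on the CBX7 library used. Without CBX7 replicate 1, the log2 fold changes were -0.16 for EEF1B2, -0.12 for EIF5A, -0.09 for EEF1G, -0.08 for EEF1D and -0.08 for EEF1E1, and none was called. Without CBX7 replicate 2, they were 0.32, 0.32, 0.28, 0.51 and 0.29, and 8 of the 10 members, all but EEF1A1 and EEF2, were called, where 35.5% of all genes were called as well (edgeR; the lone CBX7 library is assumed to vary like the control libraries). When the trend on length was removed from each library, the log2 fold changes were 3.19 for EEF1A2, -0.09 for EEF1B2, -0.06 for EIF5A and 0.19 for EEF1D.

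**Figure D3:**
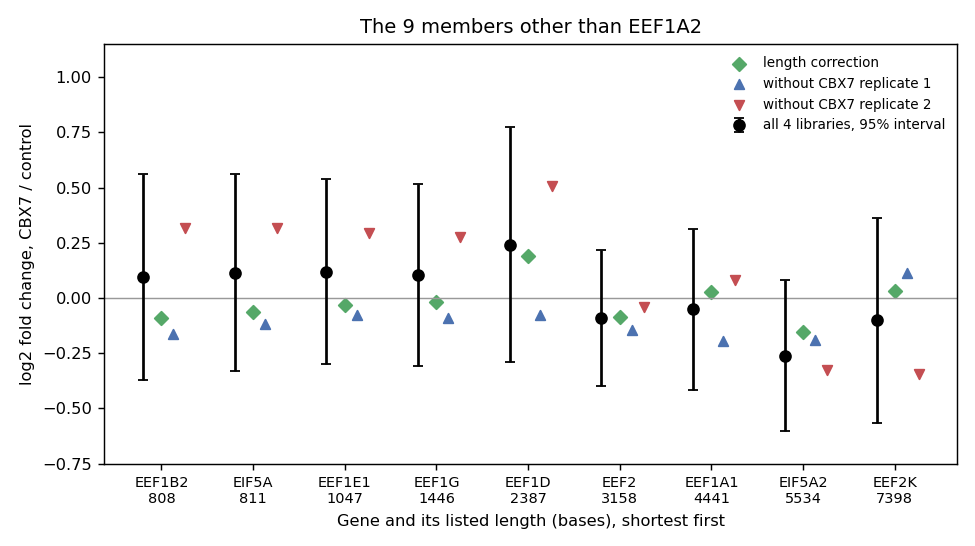
Log2 fold change (CBX7 over control) of the 9 members other than EEF1A2, ordered by listed length in bases: black points with 95% intervals are the fit to all 4 libraries, green diamonds the fit with the length trend removed, and blue and red triangles the fits without CBX7 replicate 1 and 2. The 9 black intervals include 0, and the triangles lie on opposite sides of 0 for EEF1B2, EIF5A, EEF1E1, EEF1G, EEF1D, EEF1A1 and EEF2K.

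The genes that act on or beside the elongation factors were counted in lists. None of their members passed an adjusted p of 0.05 (edgeR), beside 0.0202% of all genes, and none had an unadjusted p under 0.05, beside 4.74% of all genes. Of 13 genes for the methylation of elongation factors and the diphthamide of eEF2, 13 passed the filter, with a median log2 fold change of 0.13. EEF1AKMT2, a lysine methyltransferase of eEF1A, went from 8.47 and 9.19 CPM to 12.4 and 9.22 CPM, with replicate 2 scarcely above control. Of 10 genes for hypusine and polyamine synthesis the median was 0.11, and ODC1, the first enzyme of polyamine synthesis, had 184.1 and 173.7 CPM in control cells and 234.2 and 197.4 CPM with CBX7 (log2 fold change 0.27, standard error 0.14; 0.15 without CBX7 replicate 1 and 0.39 without replicate 2). Of 12 regulators of eEF2K the median was -0.10, with CALM3, a calmodulin gene, at a log2 fold change of 0.16 and RPTOR, the scaffold of mTORC1, at -0.21 (-0.07 with the length trend removed).

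Of 11 genes of the multisynthetase complex and valyl-tRNA synthetase the median was 0.06, with the synthetases MARS at 0.06 (-0.28 with limma on TPM) and DARS at -0.13. Of 6 genes of mitochondrial and selenocysteine elongation it was 0.08, with TSFM at 0.27 and SECISBP2 at -0.08. Of the 42 initiation genes 41 passed the filter, with a median of 0.07, EIF3M at 0.24 and the initiation inhibitor PDCD4 at -0.25. Of the 10 genes of termination and recycling 9 passed, with a median of 0.01. These medians compare with 0.00 over all genes tested. The sizes for the named genes depended on the scale and on the CBX7 library. With limma on log2(TPM + 1) the log2 fold changes were 0.20 for EEF1AKMT2, 0.05 for CALM3, -0.295 for RPTOR and 0.10 for TSFM. On that scale they were -0.13 for SECISBP2, 0.08 for EIF3M, -0.31 for DARS and -0.28 for PDCD4. Without CBX7 replicate 1 the log2 fold changes were 0.07 for EEF1AKMT2, 0.08 for CALM3, -0.15 for RPTOR and 0.01 for MARS. In that fit they were 0.09 for TSFM, -0.04 for SECISBP2 and 0.04 for EIF3M. Without CBX7 replicate 2 the values were, in the same order, 0.49, 0.24, -0.28, 0.11, 0.42, -0.12 and 0.42. PDCD4 stood at -0.201 without replicate 1 and at -0.296 without replicate 2, and DARS at -0.126 and -0.134. Both CBX7 libraries were above both control libraries for 4 initiation genes and below for 3, and for 3 and 0 of the methylation and diphthamide genes, beside 15.4% and 14.8% of all genes tested.

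No tested marker of skeletal muscle or neurons was called, beside 0.0202% of all genes. Many markers of both lists were at 0 and were not tested, and heart was not examined. Of 18 skeletal muscle markers, 10 had no count in any library, among them the muscle regulators MYOD1, MYOG, MYF5 and MYF6 and the creatine kinase CKM, which allows up to 0.144 CPM each in the shallowest library. Only 3 passed the filter, the embryonic myosin gene MYH3 (13 to 27 counts), the titin gene TTN (68.1 to 110.5 counts) and TNNT1, and the one whose groups did not overlap, with both CBX7 libraries higher as for 15.4% of all genes, was TNNT1, slow skeletal troponin T, at 106.4 and 98.5 TPM in control cells and 137.8 and 114.4 TPM with CBX7 (log2 fold change 0.50, standard error 0.25, adjusted p = 0.951 from edgeR). Of 17 neuron markers, 6 had no count in any library, among them STMN2, DCX and GAP43, and 4 passed the filter. Of these, the synaptic genes SNAP25 and SYP had 37 to 56 and 9 to 16 counts in a library, and MAP2, a microtubule-associated protein, had 6 to 16, with groups that overlapped; these genes, MYH3 and TTN are named after their values were seen. TUBB3, a beta-tubulin of neurons and of many tumor lines, had 132.5 and 128.2 CPM in control cells and 186.8 and 136.5 CPM with CBX7. Without CBX7 replicate 1 the log2 fold changes were 0.12 for TNNT1 and 0.07 for TUBB3, and without CBX7 replicate 2 they were 0.81 and 0.52. The summed TPM was 107.0 and 99.6 in control and 138.6 and 115.2 with CBX7 for the muscle list, nearly all of it TNNT1, and 121.1 and 121.0 against 141.0 and 131.0 for the neuron list, nearly all of it TUBB3.

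Among the 11 genes of the cell identity list, 10 epithelial or urothelial markers and VIM, 6 passed the filter and were tested. None was called in the reported fit (edgeR), and 2 had an unadjusted p under 0.05, beside 4.74% of all genes. With the replicate block GATA3 and KRT19 were called, where 2.43% of all genes were. KRT19, a simple epithelial keratin, had 6.54 and 5.72 CPM in control cells and 18.5 and 12.8 CPM with CBX7 (log2 fold change 1.35, adjusted p = 0.352 from edgeR). It was called by DESeq2's Wald test (adjusted p = 0.00361), and over the fits to all 4 libraries its adjusted p ran from 2.21e-09 to 0.942. Its log2 fold change was 1.06 without CBX7 replicate 1 and 1.59 without CBX7 replicate 2. GATA3, a luminal transcription factor named here after its values were seen, had 3 and 4 counts in control cells and 14 and 22 with CBX7 (adjusted p = 0.602 from edgeR). On TPM its groups overlapped, at 0.17 and 0.35 in control cells against 0.25 and 0.82 with CBX7. KRT5 had no count in any library. Without CBX7 replicate 2, 50 genes of the related and marker lists were called, TNNT1, TUBB3 and KRT19 among them, where 35.5% of all genes were called.

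None of the 5 nearest genes tested on each side of EEF1A2 had a difference near its size; they reach 88.3 kb on one side and 550.1 kb on the other, and genes that did not pass the filter were not tested. The nearest on chromosome 20 were PPDPF, at a distance of 21.4 kb, and PTK6, at 28.7 kb. PPDPF had 113.2 and 100.1 CPM in control cells and 164.1 and 104.3 CPM with CBX7, and its groups overlapped. PTK6, a tyrosine kinase of epithelia, had 4.90 and 5.14 CPM in control cells and 6.83 and 5.91 CPM with CBX7. The next gene, FNDC11, had the largest difference of the 10 neighbours, from 1.13 and 1.33 to 2.11 and 1.79 CPM (log2 fold change 0.66, standard error 0.30, adjusted p = 0.951 from edgeR). HELZ2 and GMEB2, farther on, were at 0.13 and -0.18. On the other side, ARFGAP1 at 198.2 kb, YTHDF1, SLC17A9, GID8 and DIDO1 ran from -0.21 to 0.22, and none of the 10 genes was called in the fit to all 4 libraries. Without CBX7 replicate 1, PPDPF stood at -0.03, ARFGAP1 at -0.06, GID8 at -0.03 and DIDO1 at 0.04. Without CBX7 replicate 2, HELZ2 stood at -0.13, PPDPF at 0.62 and DIDO1 at -0.50.

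**Figure D4:**
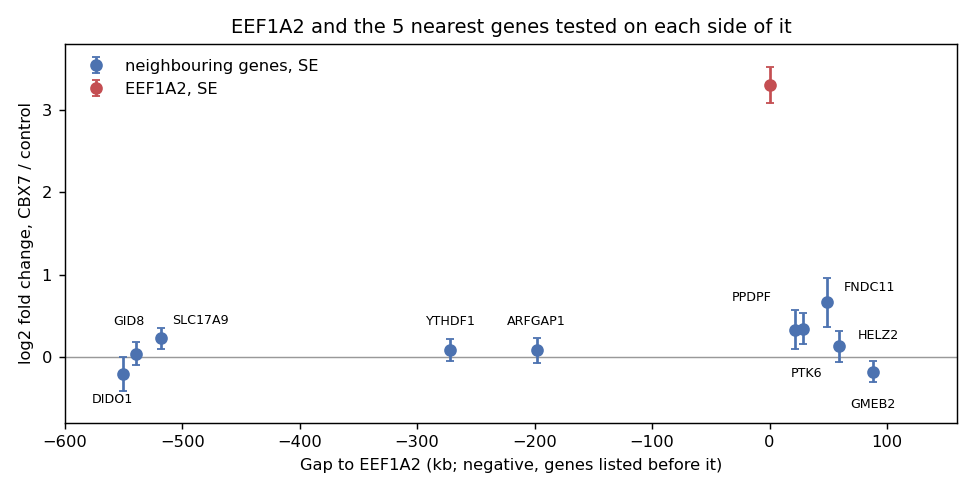
Log2 fold change (CBX7 over control) with its standard error for EEF1A2 (red) and the 5 nearest genes tested on each side of it (blue), against the gap to EEF1A2 in kb. EEF1A2 stands at 3.30, and the neighbours lie between -0.21 for DIDO1 and 0.66 for FNDC11.

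The genes whose pattern over the 4 libraries was most like that of EEF1A2 were found by the smallest distance in centred log2 CPM among genes averaging 50 counts or more, so they are a description of these 4 libraries. JAG2, a Notch ligand, was closest at a distance of 0.18 and went from 2.22 and 2.00 CPM to 23.1 and 19.5 CPM. MFAP2, a microfibril protein, followed at 0.71, from 1.34 and 1.48 to 10.4 and 7.97 CPM. IGF2, a growth factor, followed at 0.82 and went from 0.838 and 0.429 to 4.31 and 4.79 CPM. CYGB, a globin, and ARHGEF16 had log2 fold changes of 2.44 and 2.34. Without CBX7 replicate 1 the log2 fold changes of these 5 genes were between 2.20 and 3.20, and without replicate 2 between 2.46 and 3.44. With limma on log2(TPM + 1), a scale that shrinks changes of scarce messages, they were lower, at 1.04 for IGF2, 1.25 for ARHGEF16, 1.26 for CYGB, 2.10 for MFAP2 and 2.42 for JAG2. With limma on log2(TPM + 0.1) they were 2.44 for IGF2, 1.77 for ARHGEF16, 1.84 for CYGB, 2.43 for MFAP2 and 3.51 for JAG2. The cause of the differences between the scales was not tested.

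EEF1A1 has many processed pseudogenes, to which reads could be assigned. Of 68 rows named as pseudogenes of a member, 30 had a count in some library. EEF1A1P5 held the most, with 164.6 and 108.8 estimated counts in control cells and 196.5 and 110.6 with CBX7, and EEF1A1P6 and EEF1A1P22 held fewer than 40 counts in each library. All EEF1A1 pseudogene rows together held between 180.2 and 304.8 counts in a library, beside 222931 or more on EEF1A1, so adding them left the EEF1A2 share at 0.515% in control and 4.91% in CBX7-overexpressing cells.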

How the data were processed

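RNA of control and CBX7-overexpressing T24 cells, 2 libraries each, was sequenced on an Illumina HiSeq. The table deposited by the authors holds an estimated count and a TPM value, both made by the authors, per gene and library, and a listed length per gene. The submitters' processing notes name cutadapt 1.9.1, HISAT2 2.0.1, HTSeq 0.6.1, DESeq2 and hg19 without their roles. The counts were not all whole numbers, and the counter that wrote them is not given in the sources used here. Fold changes and p-values of the authors' own comparison were not used. Positions come from GENCODE release 29 (GRCh38), matched by gene identifier for 96.5% of 60623 genes; start windows come from RefSeq (GRCh38.p14).

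Expected counts were rounded, filtered with filterByExpr, normalized by TMM and tested with edgeR's quasi-likelihood test (edgeR 4.0.16, R 4.3.3) over 14862 genes with Benjamini-Hochberg adjustment at 0.05. CPM values are TMM-normalized counts. Shares were taken per library; Wilson intervals are at 95%, and a count of 0 allows up to 3 counts. Members and lists were chosen with earlier results of these data known. The named genes are the members, in each list the genes with the largest change in each direction among those averaging 50 counts or more whose groups did not overlap, the 5 nearest tested neighbours on each side, and the 5 genes most like EEF1A2; other genes are named as markers, by level or as stated. Alternatives used DESeq2 1.42.0, limma 3.58.1 on log2(TPM + 1) and log2(TPM + 0.1), other filters and scalings, a replicate block, a lowess correction for length, and each library left out. The reported fit, the replicate block, the length correction and DESeq2's Wald test were also tested on simulated counts. The other fits were not.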

Additional observations from a re-analysis of the deposited data

How the results depend on the processing

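In the 12 fits to all 4 libraries the log2 fold change of EEF1A2 lay between 3.14 and 3.30, and with 1 library left out between 3.04 and 3.52. No other member was called in those 12 fits. Genes called numbered 3 in the reported fit, 265 with no filter, 67 with DESeq2's Wald test and 1 at an adjusted p under 0.01. Leaving out 1 library gave 45 to 5491 genes, 1 to 8 members and 0 to 50 genes of the related lists; the highest of each came without CBX7 replicate 2, and the cause was not tested. Each such fit has a lone library in 1 group, assumed to vary like the others. The related lists had 0 calls in the reported fit and 1, KRT19, both with no filter and with DESeq2.

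Labels give both groups replicates 1 and 2 but do not say that a number marks a batch. Deviations of same-numbered libraries correlated at 0.305 over the genes tested and at 0.613 over those averaging 100 counts or more, but 2 pairs do not settle a pairing. With the replicate block 361 genes were called, and 549 with the block and the length correction; none of the 9 other members was called in either, and 2 genes of the related lists (GATA3, KRT19) and 4 (EIF5B, GATA3, KRT19, VIM) were.

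The EEF1A2 share was 0.372% in control and 3.65% in CBX7-overexpressing cells on counts, and 1.03% and 9.58% on counts per listed length. Log2 fold changes of several genes turned sign. With the length correction, without and with the block, they were 0.027 and 0.010 for EEF1A1, -0.091 and -0.091 for EEF1B2, -0.017 and -0.017 for EEF1G, -0.034 and -0.033 for EEF1E1, 0.032 and 0.033 for EEF2K, and -0.065 and -0.065 for EIF5A. With limma on log2(TPM + 1) and log2(TPM + 0.1), they were -0.052 and -0.052 for EEF1B2, -0.021 and -0.021 for EEF1G, -0.017 and -0.017 for EIF5A, -0.099 and -0.102 for GID8, -0.275 and -0.277 for MARS, and -0.030 and -0.030 for YTHDF1. The ranges with 1 library left out were -0.194 to 0.082 for EEF1A1, -0.165 to 0.315 for EEF1B2, -0.079 to 0.505 for EEF1D, -0.091 to 0.276 for EEF1G, -0.078 to 0.294 for EEF1E1, -0.346 to 0.114 for EEF2K and -0.116 to 0.316 for EIF5A. Among the neighbours they were -0.059 to 0.206 for ARFGAP1, -0.499 to 0.037 for DIDO1, -0.028 to 0.108 for GID8, -0.134 to 0.352 for HELZ2 and -0.028 to 0.619 for PPDPF. The causes were not tested.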
